A study of Mus musculus with 4 samples.

Results

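AgRP neurons were examined among leptin receptor reporter cells sorted from the mouse hypothalamus. They numbered 144 of 1298 kept wells and 144 of 367 wells that passed a threshold for neurons. A well was kept when it held at least 1000 counts outside spike-in and mitochondrial genes, and 1298 of 1536 wells did. Levels in single cells are values per 10000 of those counts. A kept well was called a neuron when Snap25, Syt1, Stmn2, Tubb3 and Rbfox3 together reached 12, and an AgRP neuron when Agrp also reached 2 and Npy reached 25. These 7 genes chose the cells, so their levels are a description and carry no test of identity. The remaining 223 neurons served as the comparison and are called other neurons. Values marked fed are listed for fed plates 1, 2 and 3 in that order, and values marked fasted are those of the fasted plate.

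All cells came from C57BL/6 mice carrying Lepr-cre and Rosa-LSL-tdTomato, in which cells that had activated the leptin receptor promoter at any time express the red protein tdTomato. A set of 3 plates of 384 wells held cells of fed mice and 1 plate held cells of mice deprived of food for 24 h, with libraries made by CEL-seq2, a method that tags each captured messenger RNA with a random barcode. The reporter was shared by all 4 plates. The sources used here do not give the number, sex or age of the animals. They do not say that plates came from separate animals either, and p-values then reflect plate-to-plate spread, which may be technical.

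AgRP neurons lie in the arcuate nucleus at the base of the hypothalamus and drive feeding. They release the inhibitory transmitter GABA together with neuropeptide Y (Npy) and agouti-related peptide (Agrp), which blocks melanocortin receptors that are activated by peptides of neighbouring POMC neurons. Leptin from fat lowers their activity, and the stomach hormone ghrelin raises it.

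There were 65, 40 and 23 AgRP neurons (fed) and 16 (fasted). They were 58.0% of neurons on fed plate 1 (95% Clopper-Pearson interval 48.3 to 67.3%), 38.8% on fed plate 2 (29.4 to 48.9%), 21.7% on fed plate 3 (14.3 to 30.8%) and 34.8% on the fasted plate (21.4 to 50.2%), intervals that cover counting error only. The fasted plate lay inside the range of the fed plates, and the intervals of fed plates 1 and 3 did not overlap. The sort and the thresholds can set such shares. Their median depth was 26621, 32172 and 33121 counts (fed) and 74256 counts (fasted), and their median mitochondrial share was 6.84, 6.14 and 6.25% against 8.10%. The same 384 well barcodes served each of the 4 plates, which were separate libraries, so barcodes were shared by design and do not mark shared cells. Cells with Xist and no transcript of the Y-linked genes Ddx3y, Uty, Eif2s3y and Kdm5d numbered 4 of 65, 28 of 40 and 5 of 23 (fed) and 14 of 16 (fasted). Transcripts of these Y-linked genes without Xist were found in 55, 8 and 10 cells against 0, so the plates also differed in sex.

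Among wells that missed a peptide threshold, Agrp was found in a minority, whereas Npy transcripts were found in most. In wells thinned to 5000 transcripts, Agrp was found in 138 of 139 AgRP neurons, 25 of 200 other neurons and 94 of 579 wells that are not neurons, and Npy in 139, 185 and 560 of them. The 579 wells leave out wells that passed both peptide thresholds but not the neuron sum. The rule thus sets part of the contrast in Agrp. The median Agrp level of AgRP neurons was 10.7 (range 3.05 to 32.0), 12.1 (2.24 to 35.1) and 12.4 (3.09 to 23.7) per 10000 on the fed plates and 21.6 (14.2 to 46.4) on the fasted plate. Their median Npy level was 65.8, 73.9 and 50.6 (fed) and 106.5 (fasted). Other neurons had a median Npy level of 9.66, 9.58 and 4.96 against 10.8, and wells that are not neurons one of 11.4, 12.6 and 7.07 against 14.5. The lower Npy level was thus similar in other neurons and in wells that are not neurons and the threshold of 25 lies above these medians. Around the thresholds, the 3 neurons just inside the Agrp threshold held 2.24, 3.05 and 3.09 per 10000 and the nearest outside with enough Npy held 0.841 and, in 2 cells, 0. For Npy, the 3 cells nearest inside held 26.8, 29.2 and 31.6 and the nearest outside with enough Agrp held 17.6, 15.8 and 14.8. Of all neurons, 6 passed the Agrp threshold alone and 14 passed the Npy threshold alone. The plot of both peptides in every well also holds wells close to both thresholds, and the rule cut on these 2 genes.

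**Figure D1:**
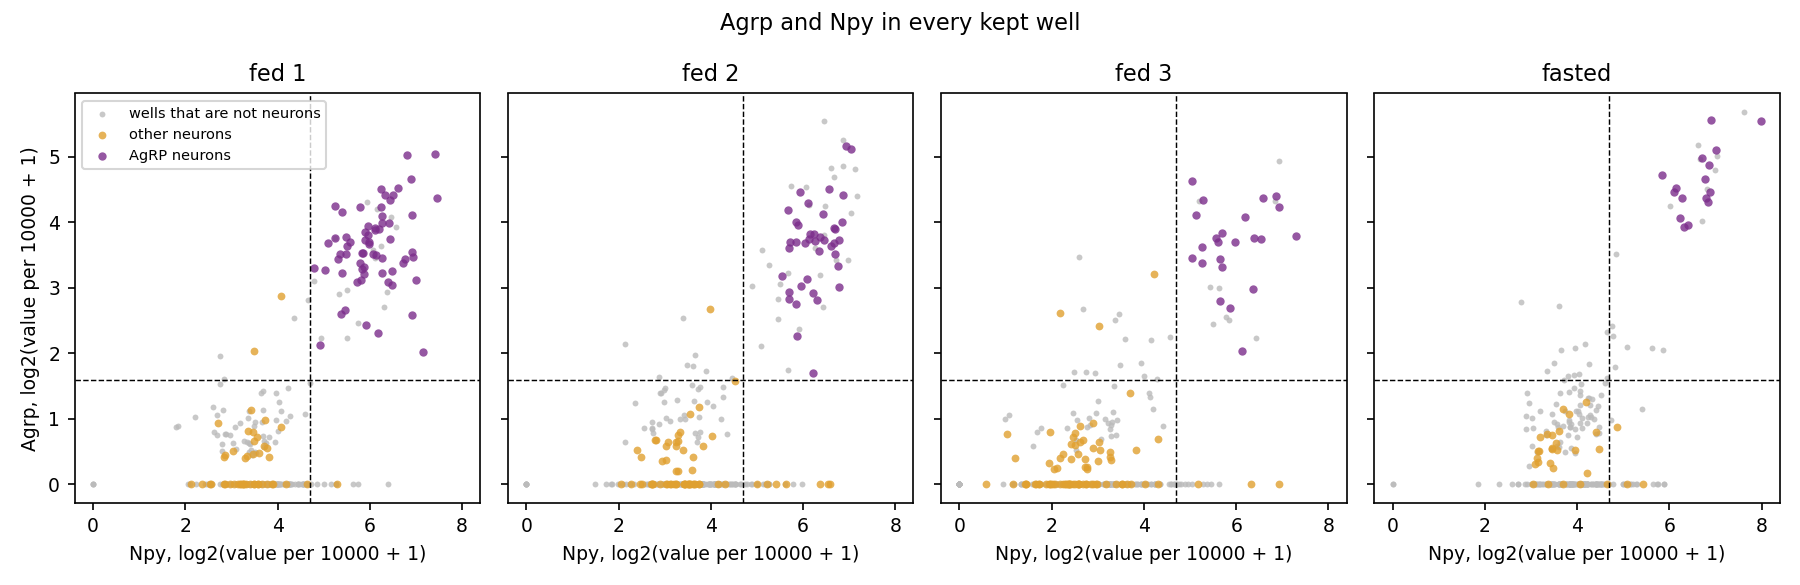
Agrp against Npy, both as log2 of the value per 10000 counts plus 1, in every kept well of the 4 plates; dashed lines mark the thresholds of 2 and 25. The AgRP neurons (purple) form a cloud of high Npy and high Agrp, and grey points inside that cloud are wells that missed the neuron threshold.

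The neuron threshold left out further wells with both peptides. A total of 68 wells passed both peptide thresholds but not the neuron sum, 42 of them with at least 10000 counts, namely 13, 18 and 3 (fed) and 8 (fasted). Otp was found in each of the 42, with medians of 5.77, 4.20 and 3.72 (fed) and 7.05 (fasted), and so were Npy2r and Calcr. The median neuron sum of AgRP neurons was 17.2, 14.9 and 17.0 (fed) and 13.9 (fasted), near the threshold of 12 and below the 26.1, 26.0, 23.7 and 29.9 of other neurons. In summed cells, the 5 neuron genes stood in different relations to other neurons. The synaptic vesicle gene Syt1 stood at 325 against 953 CPM in other neurons and the neuronal splicing factor Rbfox3 at 72.1 against 191 CPM, as means of 4 plates. Stmn2 stood at 402 against 611, Snap25 at 715 against 848 and Tubb3 at 249 against 225 CPM. CPM is the count in each summed library scaled to a common total, after TMM scaling of the sums to each other.

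The label was checked against Otp, Npy2r and Calcr, markers that the rule did not use but that were listed with earlier results of these data known. They belong to a list of 16 AgRP neuron markers, which is counted below. Otp, a homeobox transcription factor, reached 755, 628 and 566 (fed) and 611 CPM (fasted) in the summed AgRP neurons (chr13:94875602-94885130, GRCm38). In the summed other neurons it reached 24.6, 15.4 and 53.0 (fed) and 77.8 CPM (fasted). Every plate of AgRP neurons lay above every plate of other neurons. Npy2r, the receptor through which neuropeptide Y restrains its own release, stood at 443, 397 and 331 (fed) and 325 CPM (fasted) against 68.1 ± 8.48 CPM in other neurons (SD, n = 4 plates). Calcr, the calcitonin and amylin receptor, stood at 399, 350.1 and 348 (fed) and 314 CPM (fasted) against 63.4 ± 21.3 CPM. In single cells thinned to 5000 transcripts each, Otp was found in 131 of 139 AgRP neurons, 17 of 200 other neurons and 54 of 579 remaining wells, Npy2r in 111, 38 and 40, and Calcr in 114, 32 and 32. The 579 wells leave out those that passed both peptide thresholds but not the neuron sum. Of those left out, the 42 with at least 10000 counts held all 3 markers, as given above. The 3 markers were thus found in most AgRP neurons and in a minority of the other wells counted here.

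The median summed level of markers of other cell types was below 4 per 10000 for each list given here, with higher values in single cells. The summed level of 6 microglia markers had a median of 0 on each fed plate and 0.618 per 10000 on the fasted plate, that of 6 fibroblast markers ranged from 0.200 to 0.858 between plates, and that of 7 tanycyte markers from 0.344 to 0.619. Oligodendrocyte markers, summed over 7 genes, had medians from 1.64 to 3.83 and a highest value of 66.1 in 1 cell of fed plate 1. Astrocyte markers, also 7 genes, had medians from 2.40 to 2.59 and a highest value of 24.8. The 6 endothelial markers had a median of 3.00 on fed plate 1 and of 0.380 to 0.906 on the other plates. The 4 POMC neuron markers had medians from 1.85 to 3.47, with 1 cell at 10 or above on each fed plate and 2 on the fasted plate. A single fasted AgRP neuron of 1408 counts held Pomc at 99.6 and Slc17a6 at 7.10 per 10000, with no transcript of the GABA genes, whereas the next highest Pomc level of the fasted AgRP neurons was 0.331. Each of the 56 calls and differences named for the fasted plate kept its side of the threshold without that cell, an alternative added after seeing the data.

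Against other neurons of the same plates, 702 genes were higher (6.27% of 11198 tested) and 905 genes lower (8.08%) in AgRP neurons, by edgeR's quasi-likelihood test with plate as a block and Benjamini-Hochberg adjusted p below 0.05. Of these, 682 and 869 moved the same way on all 4 plates, and the levels of 426 and 611 did not overlap between the groups. These counts are over called genes only, and the call itself favours such genes, so they are a description. Lower genes changed by more, with a median absolute log2 difference of 1.25 against 0.74 and with 236 against 55 genes past a log2 difference of 2.

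The genes that set AgRP neurons apart most were led by Otp (log2 difference 3.96, SE 0.49, edgeR adjusted p = 0.0142). Next came Acvr1c, which encodes ALK7, a receptor of the activin family, at 199, 229 and 264 (fed) and 469 CPM (fasted) (chr2:58267453-58357895) against 20.0 ± 5.10 CPM in other neurons (log2 3.86, SE 0.16). Its groups did not overlap, and its level on the fasted plate was the highest. Corin, a membrane protease that cleaves natriuretic peptide precursors, stood at 51.5, 63.2 and 41.1 (fed) and 164 CPM (fasted) against 4.24 ± 3.53 CPM (log2 3.85). Rgs6, a regulator of G protein signalling, differed by 3.37, Angpt1, a ligand of the Tie2 receptor, by 3.37, Csgalnact1, which starts chondroitin sulfate chains, by 2.93, and Ptprk, a receptor tyrosine phosphatase, by 2.62 on the log2 scale. Serpina3n, a secreted protease inhibitor, was the most abundant of the 15 leading genes, at 1201, 837 and 941 (fed) and 1362 CPM (fasted) against 150.1 ± 65.5 CPM. The remaining leaders were Calcr (2.52), Krtap17-1 (3.35), Filip1 (2.99), Fli1 (2.67), Arhgap6 (2.63), Krt90 (2.60) and Col19a1 (2.55). The leading genes were selected for having the same direction on all 4 plates, and the plot of differences by plate shows how far each plate lay from 0. Gm8773, below the minimum of 50 CPM for the leading list, stood at 43.4, 40.4 and 35.9 (fed) and 43.8 CPM (fasted) against 0.504 ± 0.376 CPM (chr5:5573799-5576203). The Otp call was lost without fed plate 1 or fed plate 3 and with no filter on low counts (edgeR adjusted p = 0.0772 with no filter), with the level higher on 4 of 4 plates.

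**Figure D2:**
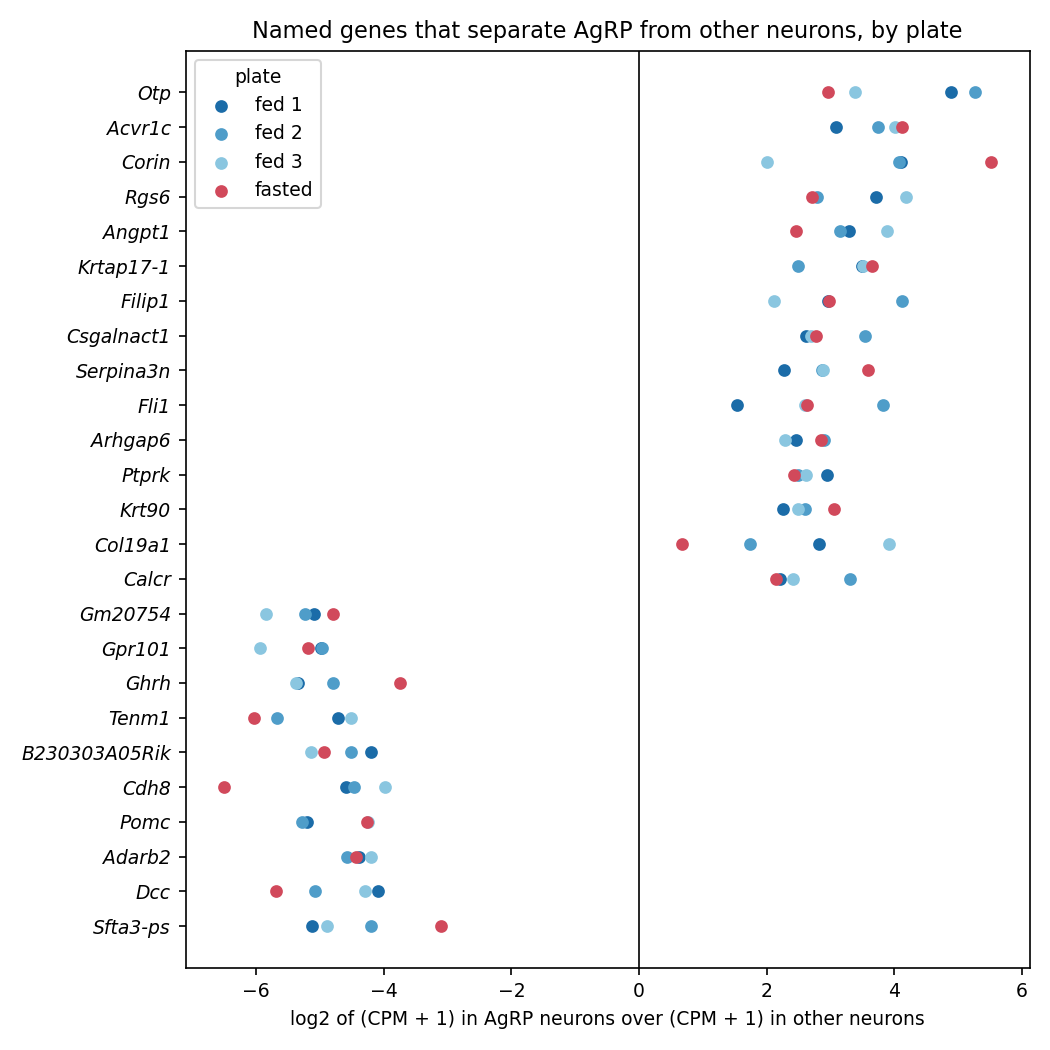
Log2 of CPM plus 1 in AgRP neurons over CPM plus 1 in other neurons, 1 point per plate, for the 15 leading genes higher and the 10 leading genes lower in AgRP neurons. The genes were selected for lying on 1 side of 0 on all 4 plates, so the side is no result; the points of a gene show the spread between plates.

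Genes nearly silent in AgRP neurons included the orphan receptor Gpr101 at 1.74, 1.75 and 1.28 (fed) and 0.996 CPM (fasted), against 86.1, 85.5 and 139.9 (fed) and 71.7 CPM (fasted) in other neurons. Tenm1, a teneurin that joins cells across the synapse, stood at 6.95, 5.26 and 11.6 (fed) and 2.99 CPM (fasted) against 269 ± 47.1 CPM, and Dcc, a receptor of the guidance cue netrin, at 25.2 ± 11.5 against 695 ± 172 CPM (SD, n = 4 plates). Cdh8, a cadherin, differed by -5.02 and Adarb2, a member of the RNA editing enzyme family, by -4.80 on the log2 scale. The noncoding or unnamed genes Gm20754 (-5.92), B230303A05Rik (-5.03) and Sfta3-ps (-4.61) completed the list with the peptide genes Ghrh and Pomc.

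Counts over gene lists in this comparison stand beside 6.27% higher and 8.08% lower over all genes tested. Of the 16 genes listed as AgRP neuron markers, 11 were higher, 1 lower and 4 not called. The lower gene was Serpini1, at 69.5 ± 24.5 against 119 ± 20.0 CPM (log2 -0.79), a call lost with limma. Other neuropeptides were mostly lower. Of 21 neuropeptide genes tested, 14 were lower, 1 was higher and 6 were not called, with a median log2 difference of -2.82 beside 0.00558 over all genes. Pomc, the precursor of melanocortins, stood at 16.2, 11.4 and 14.1 (fed) and 27.9 CPM (fasted) against 630.2, 481 and 286 (fed) and 554 CPM (fasted) in other neurons. The plates did not overlap. Ghrh, which drives growth hormone release, stood at 2.21 ± 3.19 against 110.4 ± 143 CPM, and Trh, the thyrotropin-releasing hormone gene, at 1.43 ± 1.11 against 49.4 ± 11.8 CPM. Gal (log2 -4.38), Tac2 (-4.12), Penk (-3.63) and Pdyn (-3.19), which encode galanin, neurokinin B, enkephalin and dynorphin, and Cartpt (-2.26), which encodes CART, were lower as well. Cbln4, a synaptic organizer, was the higher gene (log2 0.72, SE 0.17), a call lost with DESeq2 (adjusted p = 0.0777). Sst, the somatostatin gene, was not called, with 588 ± 441 against 286 ± 222 CPM.

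Among 20 genes of prohormone processing, 2 were higher and 3 lower, shares near the 6.27% and 8.08% of all genes tested. Pcsk1n, an inhibitor of the convertase PC1/3, reached 6659.7, 5423 and 5971 (fed) and 4652 CPM (fasted) against 2192 ± 196 CPM, with no overlap between groups (log2 1.36, SE 0.08). Resp18, a secretory granule protein, differed by 0.92. Chga and Chgb, the granins chromogranin A and B, differed by -1.01 and -0.74, and Scgn by -1.46. Of 9 transmitter genes, 3 were higher and 5 lower. The GABA genes Slc32a1, the vesicular GABA transporter, Gad1 and Gad2, the enzymes that make GABA, differed by 0.57, 0.50 and 0.47 on the log2 scale. The calls of these 3 genes, of Chga, of Chgb and of Scgn were lost with no plate block, and that of Scgn also with DESeq2 (adjusted p = 0.0569). Slc17a6, the vesicular glutamate transporter, stood at 1.74, 6.14 and 18.0 (fed) and 7.97 CPM (fasted) against 138 ± 60.6 CPM. Th, the rate-limiting enzyme of dopamine synthesis (log2 -3.17), Slc18a2, the vesicular monoamine transporter (-4.46), and Nos1, the neuronal nitric oxide synthase (-1.58), were lower too.

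Receptors moved in both directions. Of 31 hormone and peptide receptors tested, 8 were higher and 12 lower, with a median log2 difference of -0.05. Ghsr, the ghrelin receptor, stood at 16.2, 33.3 and 24.4 (fed) and 48.8 CPM (fasted) against 4.10, 2.10 and 2.72 (fed) and 6.05 CPM (fasted) in other neurons, without overlap. Ghr, the growth hormone receptor, stood at 1029.6 ± 536 against 189 ± 64.8 CPM (SD, n = 4 plates, log2 2.39), Mc3r, a melanocortin receptor, at 51.5 ± 10.6 against 13.6 ± 8.49 CPM, and Crhr1, the receptor of corticotropin-releasing hormone, at 16.9 ± 4.84 against 2.56 ± 1.47 CPM. In the other direction, Prlr, the prolactin receptor, stood at 9.84, 21.1 and 12.8 (fed) and 22.9 CPM (fasted) against 155 ± 44.6 CPM. Hcrtr2, an orexin receptor, differed by -5.03, Ptger3, a prostaglandin E receptor, by -3.27 and Cckar, a cholecystokinin receptor, by -4.36, all from few counts in AgRP neurons. Of 15 receptors of monoamines, purines and lipids, 3 were higher and 6 lower. Adra1a, an adrenergic receptor, was higher at 110.0, 95.6 and 93.7 (fed) and 56.8 CPM (fasted) against 18.9 ± 8.53 CPM, and the serotonin receptors Htr1a (log2 2.12) and Htr1b (1.89) were higher while Htr2c (-4.01), Htr4 (-2.07) and Htr7 (-1.46) were lower. The call of Htr7 was lost with DESeq2 (adjusted p = 0.0552). Htr2c in other neurons ran from 13.3 CPM on fed plate 1 to 115 on fed plate 3.

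Lepr itself did not separate the groups. It stood at 28.4, 40.4 and 56.5 (fed) and 224 CPM (fasted) in AgRP neurons and at 25.6, 39.2 and 67.0 (fed) and 69.1 CPM (fasted) in other neurons (chr4:101717404-101815352), a log2 difference of 0.53 (SE 0.34, edgeR adjusted p = 0.422) that was -0.0487 without the fasted plate. Of 28 genes of leptin and insulin signalling, 7 were higher, 2 lower and 19 not called, with a median of 0.03. Irs4, an insulin receptor substrate, stood at 988, 806 and 774 (fed) and 1201 CPM (fasted) against 362, 236 and 259 (fed) and 316 CPM (fasted) in other neurons, without overlap. Socs2 (log2 1.51) and Cish (1.45), feedback inhibitors of cytokine receptor signalling, Foxo1 (1.16), a transcription factor restrained by insulin, Stat3 (0.71), which carries the leptin signal to the nucleus, and Irs2 (0.65) were among those higher. Pik3r1, a PI3 kinase subunit (log2 -1.10), and the kinase Jak2 (-0.59) were lower, the latter a call lost with DESeq2 (adjusted p = 0.243).

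Of 45 transcription factor genes tested, 15 were higher and 23 lower, with a median log2 difference of -1.25. Besides Otp, the higher genes were led by Cited1, a transcriptional coactivator, at 1105, 1037 and 947 (fed) and 1156 CPM (fasted) against 215 ± 120.4 CPM, and by Bsx, a homeobox factor of the arcuate nucleus, at 68.3, 76.3 and 57.8 (fed) and 36.9 CPM (fasted) against 12 ± 4.04 CPM. Zfpm2 (log2 1.88), Six6 (1.85), Satb1 (1.74) and the glucocorticoid and mineralocorticoid receptors Nr3c1 (1.05) and Nr3c2 (1.06) were higher too. The homeobox genes Dlx1 (-4.34), Dlx2 (-4.10) and Gsx1 (-3.99) were lower. Hmx2, another homeobox gene, had no transcript in the summed AgRP neurons and 74 in other neurons, which is at least 20.5-fold lower against a floor of 3 counts over the group. Esr1, the estrogen receptor, differed by -3.63 and Nkx2-1, a factor of early hypothalamic development, by -3.40.

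Glutamate and GABA receptors were more often lower than higher, with 11 against 3 of 31 genes and a median of -0.43. The GABA-A subunits Gabrb2 (-3.09) and Gabra4 (-2.85) and the kainate receptor Grik3 (-3.58) were among those lower on the log2 scale, and Gabre (1.05) and the GABA-B subunit Gabbr2 (0.63) were among those higher. Of 28 potassium channels, 6 were higher and 6 lower, beside 6.27% and 8.08% of all genes tested. The leak channels Kcnk9, at 319, 277 and 193 (fed) and 449 CPM (fasted) against 75.1 ± 26.5 CPM, and Kcnk2, at 473, 536 and 453 (fed) and 400.4 CPM (fasted) against 179 ± 10.8 CPM, led the higher ones, followed by Kcnj5 (1.37) and Kcnc2 (1.11). Kcnn2 (-2.42), Kcnh7 (-2.28) and Kcnt2 (-1.87) were lower. Of 30 sodium, calcium, HCN and TRP channels, 4 were higher and 11 lower. The TRP channels went both ways. Trpc4 was higher at 125 ± 48.1 against 26.6 ± 8.31 CPM, and Trpc5 was lower at 5.57 ± 2.74 against 78.0 ± 9.63 CPM and Trpm3 at 37.3 ± 30 against 425 ± 184 CPM (SD, n = 4 plates).

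Among 57 genes of cell adhesion and axon guidance, 9 were higher and 29 lower (median -0.79). Unc5d, a netrin receptor, was higher at 1252, 1633 and 1334 (fed) and 2028 CPM (fasted) against 392, 549 and 557 (fed) and 689 CPM (fasted) in other neurons, and Dcc, described above, was lower. Cdh13, a cadherin without a cytoplasmic tail, stood at 15.5 ± 8.43 against 319 ± 75.0 CPM. Of 15 immediate early genes, 3 were higher, among them Egr1 (1.00) and Jun (0.90), and 4 lower, led by Nr4a1 (-2.0). Of 22 genes of endoplasmic reticulum chaperones, Herpud1 (0.74) and Pdia3 (0.38) were higher and the remaining 20 were not called, a share near the 6.27% of all genes tested. The call of Pdia3 was lost with DESeq2 (adjusted p = 0.243) and that of Herpud1 with limma. Of 19 clock genes, Bhlhe40 was higher (1.10) and Rorb (-3.12), Npas2 (-1.63) and Cry1 (-1.01) were lower. All genes tested gave 6.27% higher and 8.08% lower. The call of Cry1 was lost with DESeq2 (adjusted p = 0.244) and that of Npas2 with no plate block. Of the genes named so far, Otp, Cbln4, Col19a1, Cry1, Jak2, Nr4a1, Pdia3, Ptger3 and Scgn lost their calls without fed plate 1. Cry1, Gabre, Gad2, Htr1b, Jak2 and Pdia3 did so without fed plate 2, and Cry1, Gad2, Htr1b, Otp and Pdia3 without fed plate 3. Cited1, Egr1, Jak2, Nr4a1 and Pdia3 were no longer called when the fasted plate was left out.

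The comparison was repeated against the 143 other neurons with GABA genes (35, 40 and 48 (fed) and 20 (fasted)), an alternative chosen after seeing the data. In it 634 genes were higher (5.92% of 10707) and 761 lower (7.11%). Of the 702 higher genes of the first comparison, 574 were called again (81.8% of the first list, 90.5% of the second), and of the 905 lower genes 682 (75.4 and 89.6%). Slc32a1, Gad1 and Gad2 no longer differed past the threshold, at 0.01, 0.12 and 0.11 on the log2 scale (edgeR adjusted p = 0.961, 0.536 and 0.641). These GABA genes chose the comparison cells, so their lost calls are a description and carry no test. Otp (3.81), Acvr1c (3.67), Npy2r (2.18), Calcr (2.47), Ghsr (3.07) and Irs4 (1.70) were again higher. Corin, at 3.56, missed the threshold (edgeR adjusted p = 0.0596), as did Chgb, Cry1, Gabre, Htr1b, Nr4a1, Pdia3 and Serpini1. A stricter rule counted only cells with Agrp of at least 5 and Npy of at least 50 as AgRP neurons. The cells below those levels joined the other neurons. The differences of Otp (2.55, adjusted p = 0.127) and Acvr1c (2.49, adjusted p = 0.142) then missed the threshold in edgeR. So did those of Cbln4, Cited1, Corin, Cry1, Gabbr2, Gabre, Htr1a, Kcnj5, Krtap17-1, Pdia3, Scgn and Serpina3n, among the genes named so far.

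Cell-to-cell variation was measured on AgRP neurons thinned to 5000 transcripts, which left 64, 37 and 23 cells (fed) and 15 (fasted). The measure was the excess squared coefficient of variation, that is the variance minus the mean over the squared mean, which is 0 for counting noise alone. Over 1930 genes with a mean of at least 0.5 thinned transcripts on every plate, the median excess was 0.0779, 0.0832 and 0.0747 (fed) and 0.0818 (fasted). Agrp and Npy, which the rule bounds from below, had median excesses over plates of 0.165 and 0.191, with 320 and 237 genes above them. The values are a description, since cells of a plate are not replicates. Agrp and Npy levels of a cell share its depth. Across cells of at least 10000 counts, Pearson's r between them was 0.397 over 63 cells, 0.387 over 37 and 0.158 over 23 (fed) and 0.686 over 15 (fasted). The level of Agrp had r = -0.283, -0.0116 and -0.0523 with depth (fed) and -0.749 (fasted), and that of Npy -0.384, -0.231 and -0.307 (fed) and -0.595 (fasted).

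Cntn5, a contactin of the immunoglobulin family that acts in cell adhesion, varied most, with an excess of 6.87, 7.87 and 3.75 (fed) and 4.47 (fasted). Most AgRP neurons held little of it, the median over all AgRP neurons being 0, 0.273, 0.393 and 0.241 per 10000 on the 4 plates, while the highest cells reached 21.6, 30, 9.31 and 13.8. A level of at least 3 was met in 7 of 65, 5 of 40 and 2 of 23 AgRP neurons of the fed plates and 2 of 16 of the fasted plate, against 75 of 223 other neurons and 49 of 931 remaining wells. Hspa1a, an inducible heat shock protein whose near copy Hspa1b can share its reads, followed with an excess of 1.17, 1.63 and 1.72 (fed) and 1.74 (fasted). Galntl6 (1.52), Gpc5 (1.35), Rbfox1 (0.936) and Rgs6 (1.09) came next by their lowest plate, with these medians over plates. Rgs6, one of the genes that set AgRP neurons apart, was thus unevenly held among them, with 17 of 64, 6 of 37, 4 of 23 and 2 of 15 cells without a transcript. The adhesion and synapse genes Lrrtm4 (0.761), Lrfn5 (1.05) and Robo2 (0.652), the activity genes Btg2 (1.03) and Fosb (0.600), the potassium channel Kcnq5 (0.954), Hdac9 (0.658), Cxadr (0.774) and 1700086L19Rik (0.982) completed the 15.

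**Figure D3:**
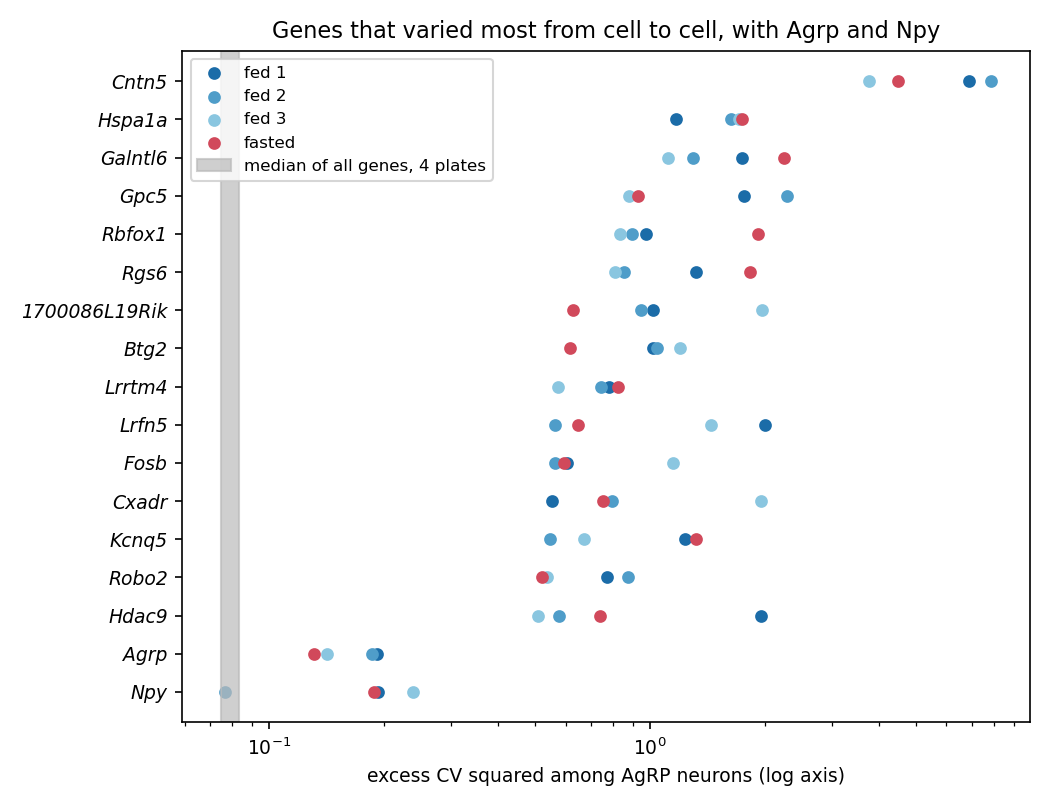
Excess squared coefficient of variation among AgRP neurons (log axis), 1 point per plate, for the 15 genes with the highest value on their lowest plate and for Agrp and Npy; the grey band spans the medians of all 1930 genes on the 4 plates. Cntn5 lies at 3.75 or above on each plate, and Agrp between 0.131 and 0.192.

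Sst was also carried by a minority. A level of at least 10 per 10000, chosen after the values were seen, was met in 5 of 65, 7 of 40 and 0 of 23 AgRP neurons of the fed plates and 3 of 16 of the fasted plate, with highest values of 69.7, 103.1, 4.86 and 56.8. The median was 0.481, 0.493, 0.435 and 1.37. The same level was met in 9 of 223 other neurons and 17 of 931 remaining wells. Cells rich in Sst and cells rich in Cntn5 overlapped. Among the 138 AgRP neurons with at least 10000 counts, 15 had Cntn5 of at least 3, 14 had Sst of at least 10 and 8 had both. The 21 cells with either had a median Rgs6 level of 0, with no transcript in 13, against 2.00 with none in 15 of the 117 other cells. Their median Galntl6 level was 2.17 against 0.546, and Otp, at 4.50 against 6.63, was found in each of the 138 cells. Their median depth was 33780 against 29820 counts. These cells were picked by their own levels, so no test was made. There were 8, 7, 2 and 4 such cells on the 4 plates, and the pooled medians did not hold on each. Their median Rgs6 level was 0 on each fed plate, against 1.21, 2.81 and 3.37 in the other cells, but 1.18 against 1.10 on the fasted plate. Their median Otp level was lower except on fed plate 3, where it was 5.42 against 4.78 and no cell had Sst of at least 10.

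**Figure D4:**
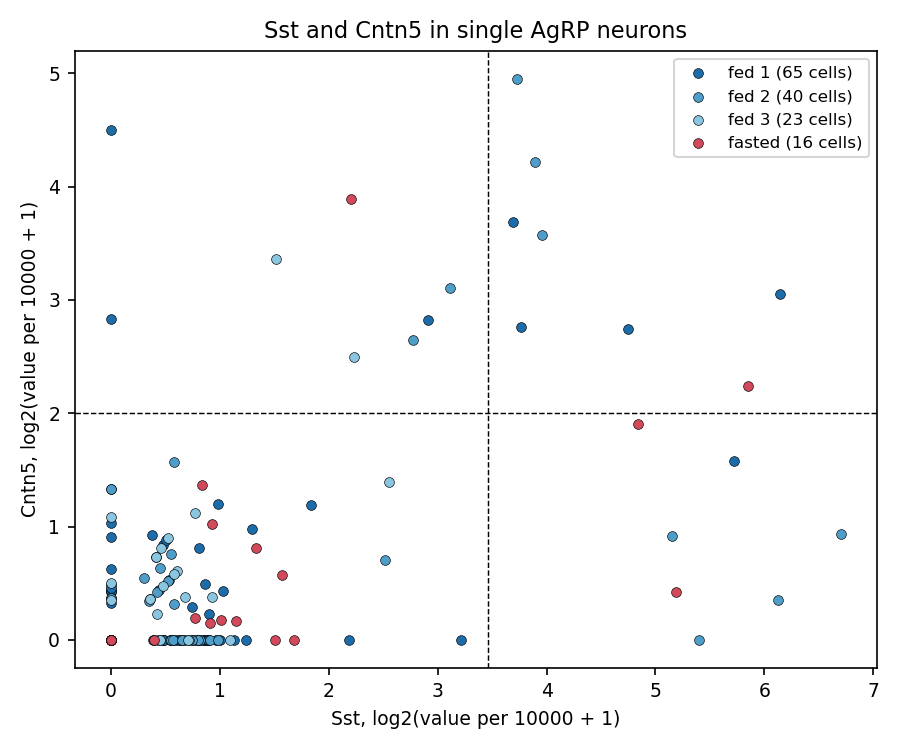
Cntn5 against Sst, both as log2 of the value per 10000 counts plus 1, in each of the 144 AgRP neurons, coloured by plate; dashed lines mark levels of 10 for Sst and 3 for Cntn5. Most cells lie near 0 on both axes, and 8 of the cells with at least 10000 counts pass both lines.

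The fasted plate was set beside the 3 fed plates in the summed AgRP neurons. The spread comes from the fed plates alone, and the fasted plate, of 16 cells, was assumed to vary like them. Plate, sex of the cells and feeding state cannot be told apart, and less RNA of a kind per cell cannot be told apart from fewer cells that hold it. A total of 294 genes were higher (2.47% of 11924 tested) and 147 lower (1.23%) on the fasted plate (edgeR's quasi-likelihood test, adjusted p below 0.05). In other neurons of the same plates 13 were higher (0.1% of 12985) and 2 lower (0.0154%). The difference between the 2 differences passed the same test for 125 genes in the direction of AgRP neurons being above (1.12% of 11198) and for 77 genes below (0.688%). The counts for AgRP neurons ran from 166 to 522 higher and from 57 to 323 lower when 1 fed plate was left out, the lowest without fed plate 3 and the highest without fed plate 1. Of the genes called in AgRP neurons and tested in other neurons, 217 of 286 higher and 120 of 146 lower ones had the same sign in other neurons. A call in AgRP neurons alone thus does not mean that a gene moved in them alone. CPM values in this comparison were scaled over other sums than above and so differ slightly from those. Counts over gene lists on the fasted plate, given below, stand beside 2.47% higher and 1.23% lower over all genes tested.

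Agrp stood at 1216, 1264 and 1265 (fed) and 2372 CPM (fasted) (chr8:105566698-105637393), above each fed plate (log2 0.93, SE 0.21). Npy stood at 6929.7, 7698 and 6266 (fed) and 9864 CPM (fasted) (chr6:49822710-49829507), also above each fed plate (log2 0.50, SE 0.24). Both genes had thresholds in the rule, which bound the levels of the cells compared. Their differences are thus a description and carry no test. In wells that were not kept, Npy stood at 53.18, 53.57 and 30.05 (fed) and 83.83 per 10000 (fasted). Agrp stood there at 2.614, 1.245 and 2.34 (fed) and 3.896 per 10000 (fasted). Both genes were thus also highest on the fasted plate in wells that were not kept. These Npy levels lay above the threshold of 25 on every plate, and these Agrp levels above that of 2 except on fed plate 2. The part of RNA from outside the cell in the fasted levels was not tested. Lepr stood at 27.7, 39.5 and 55.2 (fed) and 218 CPM (fasted), a log2 difference of 2.48 (SE 0.26). The fed plates did not overlap the fasted plate, and in other neurons the difference was 0.58 (edgeR adjusted p = 0.711). The difference between the 2 groups was 1.75 (edgeR adjusted p = 0.00235). Thinned to 5000 transcripts, Lepr was found in 7 of 64, 9 of 37 and 5 of 23 fed AgRP neurons, 7 of 15 fasted ones and 48 of 579 wells that are not neurons. Those 579 wells leave out wells that passed both peptide thresholds.

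Vgf, a neuropeptide precursor of secretory granules, rose in AgRP neurons. It stood at 73.0, 55.8 and 60.2 (fed) and 1302 CPM (fasted) in AgRP neurons (chr5:137026392-137033351; log2 4.35, SE 0.21, edgeR adjusted p = 2.93e-13). In other neurons it stood at 605, 311 and 327 (fed) and 395 CPM (fasted) (log2 -0.06), and the 2 differences differed by 4.42 (edgeR adjusted p = 1.5e-12). The median fasted AgRP neuron held 9.73 Vgf transcripts per 10000 and the highest 41.2, against medians of 0.432, 0.245 and 0.405 on the fed plates. In wells that are not neurons the median Vgf level was 0 on each fed plate and 1.27 on the fasted plate, and the part of RNA from outside the cell was not tested. Vgf was the only one of 15 neuropeptide genes tested that was called, and the list had a median of 0.92 beside -0.02 over all genes. Of 20 genes of prohormone processing, 5 rose and the remaining 15 were not called. The 5 were the granins Chga at 349, 213 and 197 (fed) and 929.6 CPM (fasted) and Scg2 at 1226, 1230.2 and 920.2 (fed) and 2393 CPM (fasted), Rab3b (log2 1.31), a vesicle protein, the convertase Pcsk2 (0.78) and Pam (0.78), which amidates peptides. In other neurons the difference of Chga was 2.21 without passing the threshold (edgeR adjusted p = 0.248), and the 2 differences did not differ past it either (-0.39, edgeR adjusted p = 0.405). Scg2 and Rab3b rose by more in AgRP neurons, by 0.87 and 0.96 (edgeR adjusted p = 0.00348 and 0.0202).

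**Figure D5:**
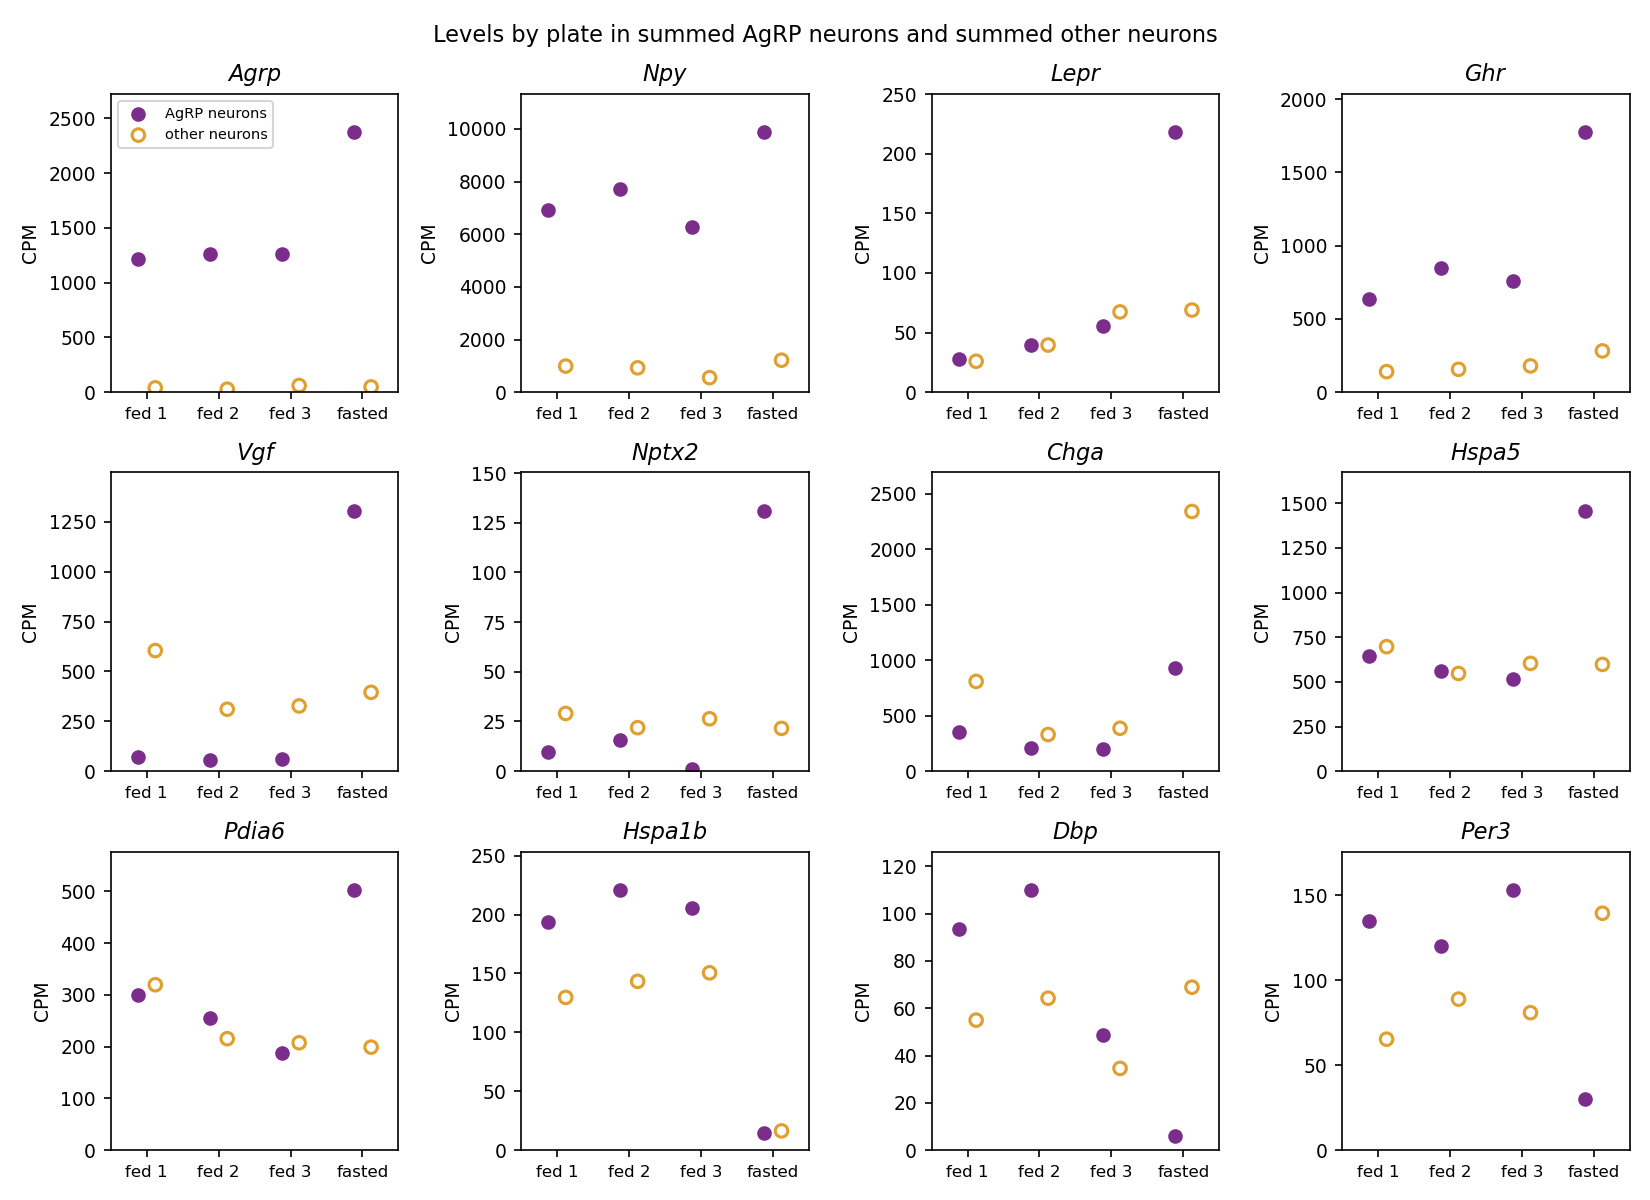
CPM by plate in the summed AgRP neurons (filled) and the summed other neurons (open) for 12 genes, with axes from 0. Vgf, Nptx2 and Hspa5 in AgRP neurons are highest on the fasted plate, and Dbp, Per3 and Hspa1b are lowest there.

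Of 31 hormone and peptide receptors, 4 rose on the fasted plate and the remaining 27 were not called. Besides Lepr they were Ghr at 638, 849 and 756 (fed) and 1772 CPM (fasted) (log2 1.25), Acvr1c at 195, 224 and 258 (fed) and 456 CPM (fasted) (1.02) and Gfra1, a co-receptor of the growth factor GDNF, at 26.0, 15.4 and 28.8 (fed) and 59.1 CPM (fasted) (1.34). Corin (log2 1.64) and Asb4, a subunit of ubiquitin ligases (1.12), rose as well, so that 5 of the 16 genes listed as AgRP neuron markers were higher and the remaining 11 not called. Asb4 rose by more than in other neurons (1.94, edgeR adjusted p = 3.71e-06). For Corin, Ghr and Acvr1c the differences of 2.73, 0.41 and 0.43 did not pass (edgeR adjusted p = 0.242, 0.358 and 0.677).

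Nptx2, a pentraxin that clusters AMPA receptors, stood at 9.62, 15.4 and 1.25 (fed) and 131 CPM (fasted) (log2 3.77, SE 0.43). It did not change past the threshold in other neurons (-0.25), and the 2 differences differed by 4.07 (edgeR adjusted p = 0.00358). Acan, the core protein of perineuronal nets, stood at 8.49, 9.44 and 5.01 (fed) and 57.1 CPM (fasted). Ntng1, a netrin-like ligand, stood at 7.36, 3.43 and 20.1 (fed) and 59.1 CPM (fasted). Of 54 adhesion and guidance genes, 7 rose and 47 were not called, and of 31 glutamate and GABA receptors 4 rose, among them Gabrg3 (1.18), Gria3 (1.11) and Gabrb1 (0.74). The channels Kcna2 (1.52) and Trpm3 (1.89) rose, and Scn2b (-1.54) and Hrh3, a histamine receptor (-1.71), fell. Cds1, which makes a phosphoinositide precursor (2.78), Spred3, an inhibitor of Ras signalling (2.68), and Lxn, a carboxypeptidase inhibitor (2.59), completed the protein-coding leaders. The leading 12 also held Gm6433, Gm15500, Gm6290 and Rpl10-ps2, pseudogenes whose reads may belong to near copies. Gm6433, Gm15500 and Gm6290 rose in other neurons as well, by 4.16, 3.10 and 2.81, and 32 of the 294 higher genes were pseudogenes.

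Chaperones of the endoplasmic reticulum, which fold secreted proteins, rose in 8 of 22 genes tested, with the remaining 14 not called and a median of 0.75 beside -0.02 over all genes. Hspa5, the main chaperone of that compartment, known as BiP, stood at 645, 561 and 515 (fed) and 1454 CPM (fasted) (log2 1.34, SE 0.21, edgeR adjusted p = 0.000371). The protein disulfide isomerase Pdia6 stood at 299, 255 and 187 (fed) and 502 CPM (fasted) (log2 1.01), the co-chaperone Dnajc3 at 84.3, 66.9 and 92.8 (fed) and 172 CPM (fasted) (1.09) and Hyou1 at 14.7, 24.9 and 11.3 (fed) and 53.3 CPM (fasted) (1.63). The fasted plate lay above each fed plate for all 4. In other neurons the differences of Hspa5, Pdia6 and Dnajc3 were -0.04, -0.31 and 0.02, and those in AgRP neurons exceeded them by 1.37, 1.32 and 1.05 (edgeR adjusted p = 4.51e-05, 0.000776 and 0.0414). For Hyou1 the difference between the groups, 1.41, did not pass (edgeR adjusted p = 0.181). Dnajb9, P4hb, Pdia3 and Hsp90b1 were the other genes called. The calls of Pdia6 and Hyou1 were lost without fed plate 3, and that of Dnajc3 with DESeq2. Those of Dnajc3 and Hyou1 were also lost with limma, in which each cell was weighted equally.

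The promoters of several of these chaperones hold the ER stress response element, written CCAAT, 9 bases of any kind and CCACG, which is bound in the unfolded protein response. It was searched on both strands in the 250 bases before the start of each gene (RefSeq, GRCm38.p6). It was found in 33 of 27025 promoters (0.122%), in 4 of the 7 called chaperone genes that the promoter table holds, and in 4 of the 12 uncalled ones. The 4 promoters are shown because these genes rose together, with the element in capitals, lying 65 bases before the start in Hspa5, 98 in Pdia6, 105 in Dnajc3 and in 2 copies in Hsp90b1, the one nearer to the start read on the opposite strand. A match is a description of the letters and was not tested for binding.
Hspa5, chr2:34771840-34772089, + strand: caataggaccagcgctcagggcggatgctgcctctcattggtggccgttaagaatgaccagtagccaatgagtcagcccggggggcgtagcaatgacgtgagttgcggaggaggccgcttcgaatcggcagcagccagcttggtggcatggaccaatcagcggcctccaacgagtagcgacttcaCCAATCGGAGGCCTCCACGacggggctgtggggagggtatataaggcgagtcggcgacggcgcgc
Pdia6, chr12:17266339-17266588, + strand: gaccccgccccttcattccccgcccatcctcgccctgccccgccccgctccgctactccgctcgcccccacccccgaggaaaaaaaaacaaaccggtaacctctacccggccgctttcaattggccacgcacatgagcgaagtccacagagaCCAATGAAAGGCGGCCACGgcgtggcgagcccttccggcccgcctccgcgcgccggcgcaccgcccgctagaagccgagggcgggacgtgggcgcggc
Dnajc3, chr14:118937682-118937931, + strand: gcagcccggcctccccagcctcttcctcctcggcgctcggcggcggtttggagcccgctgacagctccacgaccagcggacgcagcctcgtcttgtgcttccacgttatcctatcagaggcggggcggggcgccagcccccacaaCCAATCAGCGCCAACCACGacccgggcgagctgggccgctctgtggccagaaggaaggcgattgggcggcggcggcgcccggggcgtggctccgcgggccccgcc
Hsp90b1, chr10:86705445-86705694, - strand: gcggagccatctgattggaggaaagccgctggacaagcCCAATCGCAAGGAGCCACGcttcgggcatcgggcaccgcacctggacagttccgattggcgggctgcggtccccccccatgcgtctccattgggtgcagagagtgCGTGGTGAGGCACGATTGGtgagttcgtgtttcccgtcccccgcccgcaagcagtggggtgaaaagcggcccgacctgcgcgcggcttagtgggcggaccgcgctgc

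Clock genes were mostly lower among those called, with 7 lower and 2 higher of 19 tested and a median of -0.88. Dbp, an output factor of the clock that binds D-box sites, stood at 93.4, 109.8 and 48.9 (fed) and 5.81 CPM (fasted) (chr7:45705088-45710203; log2 -3.86, SE 0.58). Per3, a period gene, stood at 135, 120.1 and 153 (fed) and 30 CPM (fasted) (-2.17), Nr1d2 at 227, 219.6 and 158 (fed) and 50.4 CPM (fasted) (-2.01) and Nr1d1 at 106, 71.2 and 86.5 (fed) and 28.1 CPM (fasted) (-1.65), the last 2 encoding the repressors REV-ERB beta and alpha. The fasted plate lay below each fed plate for all 4. Tef, Hlf and Bhlhe40 were also lower, while Nfil3, a repressor that competes for the D-box (2.09), and Rorb (1.74) were higher. Other neurons did not show a called difference in Dbp (0.45), Per3 (0.82), Nr1d2 (-0.46) or Nr1d1 (0.07), and the difference in AgRP neurons minus that in other neurons was -4.25, -3.01, -1.54 and -1.71 (edgeR adjusted p = 6.97e-06, 3.71e-06, 0.00295 and 0.00729). The sources used here give no time of day of collection, and its part was not tested. The promoter of Per3 is shown as the one of the called clock genes in the promoter table with the D-box TTATGTAA, searched on both strands in the same windows. Its 2 matches are in capitals, and 233 of 27025 promoters (0.862%) hold it.
Per3, chr4:151044666-151044915, - strand: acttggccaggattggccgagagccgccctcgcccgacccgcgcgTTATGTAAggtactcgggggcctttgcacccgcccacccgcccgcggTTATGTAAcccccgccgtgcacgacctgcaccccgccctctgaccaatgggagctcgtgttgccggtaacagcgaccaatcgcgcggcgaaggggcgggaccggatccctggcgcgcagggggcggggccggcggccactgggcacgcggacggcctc

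Hspa1b, a heat shock gene that shares sequence with Hspa1a, stood at 194, 220.5 and 206 (fed) and 14.5 CPM (fasted) (log2 -3.82) and was also lower in other neurons (log2 -3.11, edgeR adjusted p = 0.00844). The 2 differences did not differ past the threshold (-0.73, edgeR adjusted p = 0.576). The remaining leading genes that fell were Gm28928 (-2.71), Lmo3, a LIM domain factor (-2.18), Zfr2 (-2.10), Vsnl1, a neuronal calcium sensor (-2.07), Tppp3, a tubulin-binding protein (-2.01), the pseudogene Gm8055 (-1.96), Rph3a, an effector of the vesicle protein Rab3 (-1.82), and Nme3 (-1.79). Dusp1, an immediate early phosphatase, fell by 1.55 on the log2 scale.

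Fed plate 1 held mostly cells with Y-linked transcripts, judged as above by Ddx3y, Uty, Eif2s3y and Kdm5d. The comparison was therefore repeated on cells that held Xist but nothing Y-linked by those genes, 4, 28 and 5 (fed) and 14 (fasted). It called 50 genes higher and 11 lower. Of the 294 higher genes, 289 were tested and had the same sign, with a median log2 difference of 1.27 against 1.29 for the same genes in all cells, and of the 147 lower genes 141 did, with -1.21 against -1.26. These cells are a subset of those compared first. Vgf, Nptx2, Lepr, Hspa5, Dbp and Nr1d2 were called again (edgeR adjusted p = 5.74e-18, 4.83e-05, 0.00148, 0.0130, 0.000918 and 0.0101), whereas 33 of the named calls were lost. The 33 count Agrp, a gene of the rule given as a description only, with a log2 difference of 1.12. Among these, the log2 difference of Per3 was -1.63, of Ghr 1.27 and of Pdia6 1.20. Acvr1c, Asb4, Dnajc3, Gabrg3, Gfra1, Hrh3, Hyou1, Kcna2, Nfil3, Nr1d1, Ntng1, Rorb, Scg2 and Trpm3 were also among them. Of the 147 lower genes, 2 lie on the Y chromosome. Among the named calls, those of Scg2, Pcsk2, Gfra1, Gria3, Gabrb1, Kcna2, Kcnt2, Hyou1, Pdia6 and Pcdh10 were lost without fed plate 3. Those of Gfra1, Gabrb1 and Epha5 were lost without fed plate 2, and that of Kcnt2 without fed plate 1. With each cell weighted equally in limma, the calls of Dnajc3, Epha5, Gabrb1, Gabrg3, Hyou1, Kcna2, Kcnt2, Nfil3, Pcdh10, Pcsk2 and Trpm3 were lost as well. DESeq2 lost those of Dnajc3, Epha5, Gria3, Pcsk2 and Scn2b, among others. The deeper fasted libraries and their mitochondrial share, given above, moved with the plate too, and their part was not tested.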

How the data were processed

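Single reporter cells were profiled by CEL-seq2 on 4 plates, 1 sample each. The deposited values are expected counts of transcripts per gene and well. Each traced to a whole number of molecular barcodes under a correction for collisions among 4096 possible ones (tolerance 1e-06), a form read from the values. The submitters' processing notes name Trim Galore, STAR and the build mm10. For the counting tool and the annotation release, the sources used here give no name. Wells with at least 1000 counts were kept.

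Expected counts were summed over the cells of a class on each plate and rounded to whole numbers. The sums were tested with edgeR 4.0.16 in R 4.3.3 (TMM scaling, quasi-likelihood test, Benjamini-Hochberg adjustment, threshold 0.05), with plate as a block for AgRP against other neurons, which share plates. The fasted plate was compared with 3 fed plates with 2 residual degrees of freedom. The standard error is the absolute log2 difference over the square root of F. Tests were checked on simulated data. Variation was the expected moment over all thinnings of a cell to 5000 transcripts. Alternatives used DESeq2 1.42.0, limma 3.58.1, other thresholds and left-out plates, and those called added were chosen after seeing the data. Python 3.11.15, numpy 2.4.6, pandas 2.3.3 and scipy 1.17.1 were used.

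The cell rule, gene lists and tests were chosen with earlier results of these data known. For identity, the 15 higher and 10 lower called genes with the largest log2 difference were named, among genes of at least 50 CPM in the higher group that moved the same way on all 4 plates, and for the fasted plate the 12 higher and 12 lower outside the fed range. Up to 4 called genes per list and direction, the markers Otp, Npy2r, Calcr and Lepr, Agrp and Npy, and the 15 genes with the largest variation on their lowest plate were added. Other members named, and Sst, were chosen after their values were seen. Doublets were not called. A few named genes are not reported here.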

Additional observations from a re-analysis of the deposited data

Results flagged for a closer look

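The difference between the fasted plate and the fed plates was not the same in AgRP neurons and in other neurons for 25 named genes reported here, by the test of the difference itself (edgeR, adjusted p below 0.05). On the log2 scale, the difference in AgRP neurons minus that in other neurons was above 0 for Vgf (4.42), Nptx2 (4.07), Ntng1 (3.53), Cds1 (2.87), Lxn (2.74), Spred3 (2.58), Asb4 (1.94), Kcna2 (1.85), Lepr (1.75), Gfra1 (1.62), Hspa5 (1.37), Pdia6 (1.32), Pcdh10 (1.17), Gabrg3 (1.09), Dnajc3 (1.05), Rab3b (0.96) and Scg2 (0.87). It was below 0 for Dbp (-4.25), Per3 (-3.01), Gm28928 (-2.43), Hrh3 (-1.96), Nr1d1 (-1.71), Zfr2 (-1.66), Nr1d2 (-1.54) and Rph3a (-1.25). Both groups of cells came from the same 4 plates, 1 of them fasted.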

How the results depend on the processing

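Counts of genes moved more than their direction did. With DESeq2, 459 genes were higher in AgRP neurons than in other neurons, and with no replicate block (plate not a term) 356 were higher and 600 lower, against 702 and 905 with plate as a block. With no filter on low counts 1419 were lower. Leaving out 1 plate gave 484 to 861 higher and 713 to 1141 lower genes. The difference of Lepr was -0.0487 without the fasted plate and up to 0.7997 without a fed plate. For the fasted plate, DESeq2 called 87 higher and 60 lower, equal weights per cell with limma 240 lower, cells that held Xist but nothing Y-linked 50 and 11, and wells of at least 10000 counts with no neuron threshold, an alternative added after seeing the data, 260 lower. Leaving out 1 fed plate gave 166 to 522 higher and 57 to 323 lower. With Agrp of at least 5 and Npy of at least 50, the share of AgRP neurons was 40.2% on fed plate 1 and 11.3% on fed plate 3. Thinning to 10000 transcripts gave a median excess variation of 0.0966 against 0.0799, over more genes. The causes of these shifts were not tested. No paired analysis was possible because, for the fasted comparison, only 1 fasted plate was analysed here. Of single named genes, 1563 values kept their direction and side of the threshold, 107 lost the call and 1 reversed for identity. For the fasted plate 634 kept both, 77 lost the call and 1 gained it. For the fasted plate, DESeq2 gave no adjusted p for some named genes, and these values were left out of that tally. The 16 fasted AgRP neurons and 1 fasted plate limit what depth can add.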
